A study of Homo sapiens with 2 samples.

Results

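The 8 transcription factors SPI1, CEBPA, CEBPB, CEBPD, CEBPE, IRF8, IRF4 and KLF4 were followed in nonadherent blood cells made from the human induced pluripotent stem cell line IPS11. They were chosen by name as factors that set myeloid fate, and all 8 were found among the 32738 genes of the count table. The cells came from day 5 of the endothelial-to-hematopoietic transition, in which CD34-positive cells of endothelial character give rise to floating blood cells. They were grown on 4 kinds of plate, uncoated or coated with VCAM1, with DLL4 or with both, and 3 wells of each kind were pooled. All conditions used the same stem cell line and medium. Each pool carried its own hashtag, an antibody with a sequence barcode, and the 4 pools were captured together, so that there was 1 library without replicate cultures. The sources used here do not say which hashtag marked which plate, so hashtags are named by number only (0252, 0253, 0254 and 0255).

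SPI1 encodes PU.1, the ETS-family factor that macrophages, dendritic cells and granulocytes all need. The C/EBP factors are basic leucine zipper proteins that bind DNA in pairs: CEBPA starts the granulocyte and monocyte program, CEBPB acts in stress and in macrophages, CEBPD follows inflammatory and differentiation signals, and CEBPE is required for the late granules of neutrophils and for eosinophils. IRF8 drives monocytes and dendritic cells and holds back neutrophils, IRF4 is its close relative with roles in dendritic cells and alternatively activated macrophages, and KLF4 is a zinc finger factor of monocytes. PU.1 binds a core of GAGGAA, and both IRF proteins can sit beside it as partners.

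The promoter sequences are shown because PU.1 is the factor found in most of these cells, and its core letters were searched in them. The windows are the 250 bases before the annotated start in RefSeq (GRCh38.p14), read 5′ to 3′ on the strand of the gene, with the core (GAGGAA, or TTCCTC where it lies on the opposite strand) in capitals. Of 8 windows from the 6 factors matched by symbol, 3 held the core, those of IRF4 (chr6:391502-391751, plus strand), KLF4 (chr9:107489770-107490019, minus strand) and CEBPE (chr14:23119256-23119505, minus strand).
IRF4: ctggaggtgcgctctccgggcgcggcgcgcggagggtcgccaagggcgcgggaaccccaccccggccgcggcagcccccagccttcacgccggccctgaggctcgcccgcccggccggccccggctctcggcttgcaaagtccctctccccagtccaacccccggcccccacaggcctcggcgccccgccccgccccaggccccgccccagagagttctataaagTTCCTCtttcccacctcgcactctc
KLF4: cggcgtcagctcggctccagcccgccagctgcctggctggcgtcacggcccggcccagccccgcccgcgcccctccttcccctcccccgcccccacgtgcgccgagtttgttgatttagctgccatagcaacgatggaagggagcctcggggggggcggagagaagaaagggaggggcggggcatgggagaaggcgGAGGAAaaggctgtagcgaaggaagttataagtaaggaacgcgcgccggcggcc
CEBPE: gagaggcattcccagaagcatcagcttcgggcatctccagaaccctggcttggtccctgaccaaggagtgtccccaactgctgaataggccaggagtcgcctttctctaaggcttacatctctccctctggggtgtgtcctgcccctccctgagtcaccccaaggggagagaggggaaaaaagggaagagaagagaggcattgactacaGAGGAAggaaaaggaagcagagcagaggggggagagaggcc
The core lay 25 to 20 bases before the start in IRF4, 54 to 49 bases in KLF4 and 41 to 36 bases in CEBPE. Searched the same way on both strands, 23.6% of all 35116 RefSeq windows of this length held it. With 8 windows, a count of 3 cannot be told apart from that share. The C/EBP letters TTGCNNAA and the GATA letters AGATAA were in none of the 8 windows, against 9.05 and 9.17% of all windows. The KLF letters GGGGCGG were in 5 of the 8 windows, those of IRF4, KLF4, CEBPA and both of CEBPB, against 29.3% of all windows. Those 5 windows held 69.2 to 81.2% G and C, where the median over all windows was 58.0%. The part of this in the KLF matches was not tested. A match of so few letters describes the sequence and is not a binding site.

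Counts are unique molecular identifiers (UMIs), each standing for 1 captured RNA molecule. Of 10836 barcodes, 8488 carried 1 hashtag, and 7550 of these also had at most 36000 UMIs, 6000 genes and 18% mitochondrial UMIs. They held 142110950 UMIs with a median of 18318.5 per cell, and 2136, 1996, 1847 and 1571 of them belonged to hashtags 0252, 0253, 0254 and 0255. Levels are given as UMIs of a gene per 1000000 UMIs summed over a group of cells (CPM), with exact Poisson intervals, and shares of cells with exact Clopper-Pearson intervals, all at the 95% level and for counting error only. With 1 library no test between groups or hashtags was possible and no p-value is given. Where intervals are said to overlap, this alone does not show that the levels are equal. Because the library reads the 3′ ends of transcripts, levels are compared for the same gene between cells and not between genes.

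Groups were set by markers, at 10 UMIs or more in the cell. There were 619 C1Q cells (the complement genes C1QA, C1QB and C1QC summed) and 490 HLA-DRA cells (class II, with under 10 summed C1Q UMIs). Further groups were 49 ELANE cells (neutrophil elastase, with under 10 S100A8 UMIs), 198 S100A8 cells (calprotectin, with any number of ELANE UMIs) and 195 EPX cells (eosinophil peroxidase). The 2368 CD34/GATA2 cells had a UMI of both progenitor genes and too few of any other marker. The HLA-DRA cells were not free of C1Q, with C1QA, C1QB and C1QC at 38.45, 33.1 and 70.7 CPM. The C1Q cells had these genes at 603, 621 and 963 CPM. The 519 globin cells and 62 COL1A1 cells served as a reference for RNA free in the droplets, and 35 cells with other combinations of markers and 3019 with markers of none were kept apart. Median depth ran from 12996.5 UMIs in the S100A8 cells to 20131.5 in the CD34/GATA2 cells. The blood genes CD34, SPN and PTPRC together were between 401 and 568 CPM in the 6 groups and 74.6 CPM in the COL1A1 cells. SPN alone was at 116 to 472 CPM against 40.5 CPM, and PTPRC at 25.4 to 282 CPM against 12.9 CPM. CD34 defines the CD34/GATA2 group. In the C1Q, ELANE and S100A8 cells it was at 10.2, 17.4 and 15.6 CPM, below the COL1A1 cells at 21.2 CPM. The endothelial genes CDH5 and KDR summed to at most 3.98 CPM in any of the 6. Macrophage markers summed to 2426 CPM in the C1Q cells and at most 190.1 CPM in the other groups. That list includes the C1Q genes that set the group, so most of this contrast follows from the grouping. Of its other genes, CD14 was at 99.5 CPM in the C1Q cells, 3.50 in the HLA-DRA cells and 6.75 in the S100A8 cells. CD68 was at 119, 41.5 and 71.8 CPM in the same order. The HLA-DRA cells had CD1C at 44.7 CPM and CLEC10A at 72.6 CPM, below the C1Q cells at 84.2 and 168 CPM, and CLEC9A and XCR1 were at most 1.93 CPM in both. In the ELANE cells MPO reached 15077 CPM and LTF, a gene of secondary granules, had no UMI.

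Each myeloid group carried its own combination of the factors. Against the CD34/GATA2 cells, a difference of 2-fold or more with at least 50 UMIs in the cells compared was counted. In the S100A8 cells, 6 of 7 factors counted were higher (CEBPA, CEBPB, CEBPD, CEBPE, IRF8 and KLF4) and 0 were lower, where 12.5% of all genes were higher and 10.9% lower. In the C1Q cells, 6 of 8 were higher (SPI1, CEBPA, CEBPD, IRF8, IRF4 and KLF4) and CEBPE was lower, against 11.5 and 13.4% of all genes. In the ELANE cells, all 4 C/EBP genes were higher of 6 factors counted and 0 were lower, against 10.1 and 9.91%. In the HLA-DRA cells, SPI1, CEBPD, IRF8 and KLF4 were higher and CEBPE was lower of 7 counted, against 8.20 and 11.7%. The EPX cells had the fewest, with CEBPD and CEBPE higher and IRF8 lower of 6 counted, against 4.61 and 10.3%. The median log2 difference of the factors was 2.23 in the S100A8 cells, 1.93 in the C1Q cells, 1.73 in the ELANE cells, 1.18 in the HLA-DRA cells and 0.64 in the EPX cells, while the median over all genes counted lay between -0.12 and 0.05. IRF4 was too rare to be counted outside the C1Q cells, and KLF4 too rare in the ELANE and EPX cells. In the CD34/GATA2 cells IRF4 had 5 UMIs and KLF4 36. IRF4 reached 50 UMIs only through the C1Q cells, and KLF4 only through the C1Q, HLA-DRA and S100A8 cells. Once counted there, both could only be higher, so these calls add no support to the counts and medians above. With a mitochondrial limit of 10%, which left 19 HLA-DRA cells and 98 CD34/GATA2 cells, SPI1 and CEBPD in the HLA-DRA cells were 1.45-fold and 1.11-fold the progenitor level and no longer counted, nor was CEBPB in the ELANE cells at 1.79-fold. CEBPA in the EPX cells then went from 1.36-fold to 0.272 of the progenitor level. IRF8 in the EPX cells came from 11 UMIs. It was at 0.543 of the progenitor level without hashtag 0253 and at 0.591 after thinning to 5000 UMIs, and it was not counted with the mitochondrial limit of 10%. This call was therefore not stable.

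**Figure D1:**
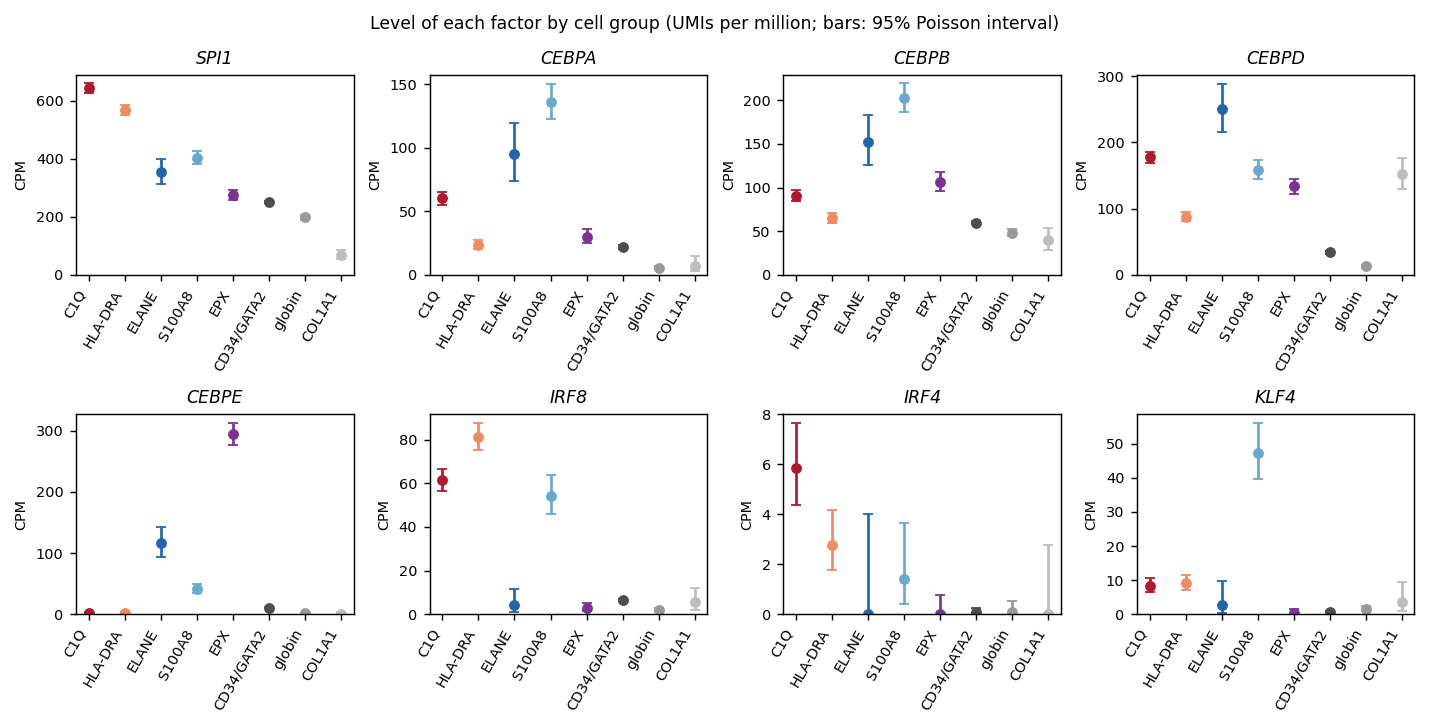
Level of each factor (vertical axes, CPM, each from 0) in the C1Q, HLA-DRA, ELANE, S100A8, EPX, CD34/GATA2, globin and COL1A1 cells, as points with 95% Poisson intervals. SPI1 is highest in the C1Q cells at 643 CPM, CEBPE in the EPX cells at 294.6 CPM, IRF8 in the HLA-DRA cells at 81.1 CPM and KLF4 in the S100A8 cells at 47.2 CPM.

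SPI1 (ENSG00000066336, chr11:47376411-47400098 in hg19, minus strand) was the factor found in nearly every cell. Its level was 643 CPM (627 to 660) in the C1Q cells, 568 (552 to 584.5) in the HLA-DRA cells, 403.5 (380 to 428) in the S100A8 cells, 354 (313 to 399.5) in the ELANE cells, 276 (259 to 293) in the EPX cells and 251 (247 to 256) in the CD34/GATA2 cells. Neighbours in this order had intervals apart, except the S100A8 and ELANE cells, which did not differ beyond counting error. The range over the 6 groups was narrow, 2.56-fold (2.48 to 2.64) from the lowest to the highest. After each cell was thinned at random to 5000 UMIs, SPI1 was seen in 93.2% of C1Q cells, 92.8% of HLA-DRA cells, 91.7% of ELANE cells and 89.2% of S100A8 cells. It was seen in 68.6% of EPX cells and 69.3% of CD34/GATA2 cells. The globin cells stood at 199 CPM and 55.5%, and the COL1A1 cells, of a stromal type that should lack PU.1, at 69.1 CPM and 24.6%. The level in the COL1A1 cells was 0.275 of that in the progenitors (0.216 to 0.345).

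CEBPA (ENSG00000245848, chr19:33790840-33793440 in hg19, minus strand) was highest where neutrophil and monocyte genes were on. It stood at 136 CPM (123 to 150) in the S100A8 cells, 94.9 (74.1 to 120) in the ELANE cells and 60.4 (55.4 to 65.6) in the C1Q cells, each apart from the next. The EPX cells at 30.0 CPM (24.7 to 36.0), the HLA-DRA cells at 23.7 (20.5 to 27.3) and the CD34/GATA2 cells at 22.0 (20.7 to 23.3) followed, and neighbours among these did not differ beyond counting error. The S100A8 cells were thus 6.20-fold (5.50 to 6.97), the ELANE cells 4.32-fold (3.35 to 5.50) and the C1Q cells 2.75-fold (2.48 to 3.05) above the progenitors. This factor separated both class II-bearing groups, with a level in the C1Q cells 2.54-fold (2.16 to 3.01) that of the HLA-DRA cells. Thinned, it was seen in 46.9% of S100A8 cells and 37.5% of ELANE cells, against 7.90% of CD34/GATA2 cells, 3.30% of globin cells and 3.28% of COL1A1 cells.

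CEBPB (ENSG00000172216, chr20:48807367-48809205 in hg19, plus strand) varied least after SPI1. Its level was 202.5 CPM (186 to 220) in the S100A8 cells, 152 (126 to 183) in the ELANE cells, 106.5 (96.5 to 117) in the EPX cells, 90.4 (84.4 to 96.8) in the C1Q cells, 64.7 (59.4 to 70.4) in the HLA-DRA cells and 59.9 (57.7 to 62.0) in the CD34/GATA2 cells. The EPX cells were 1.18-fold (1.04 to 1.33) above the C1Q cells, and the HLA-DRA and CD34/GATA2 cells did not differ beyond counting error. Only the S100A8 cells (3.38-fold, 3.09 to 3.70) and the ELANE cells (2.55-fold, 2.09 to 3.07) passed 2-fold over the progenitors. The globin cells had 48.3 CPM and the COL1A1 cells 39.6 CPM, the latter at 0.662 (0.478 to 0.894) of the level in the progenitors.

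CEBPD was the C/EBP gene for which all 5 myeloid groups were more than 2-fold above the progenitors. It was at 249.9 CPM (215 to 288.5) in the ELANE cells, 177 (169 to 186) in the C1Q cells, 158 (144 to 174) in the S100A8 cells, 133 (122 to 145) in the EPX cells and 87.9 (81.6 to 94.5) in the HLA-DRA cells, against 33.8 (32.2 to 35.4) in the CD34/GATA2 cells. The C1Q cells were 1.12-fold (1.01 to 1.25) above the S100A8 cells, and these 1.19-fold (1.04 to 1.35) above the EPX cells. The fold over the progenitors was 7.40 (6.33 to 8.61) in the ELANE cells and 2.60 (2.38 to 2.84) in the HLA-DRA cells. The COL1A1 cells carried CEBPD at 152 CPM (130 to 177), within the range of the myeloid groups, and the globin cells 13.1 CPM, so that its presence did not mark blood cells. In thinned cells it was seen in 60.4% of ELANE cells, 51.0% of C1Q cells and 12.2% of CD34/GATA2 cells.

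CEBPE (ENSG00000092067, chr14:23586245-23589465 in hg19, minus strand) had the widest range of the C/EBP genes and a clear peak in the cells with eosinophil genes. The EPX cells stood at 294.6 CPM (278 to 312), the ELANE cells at 116 (93.1 to 143), the S100A8 cells at 41.6 (34.4 to 49.8) and the CD34/GATA2 cells at 10.9 (9.98 to 11.8), each apart from the next. The C1Q cells at 2.42 CPM (1.52 to 3.67) and the HLA-DRA cells at 2.29 (1.38 to 3.58) did not differ from each other or from the globin cells at 1.51 (0.864 to 2.46) beyond counting error, and the COL1A1 cells had 0 UMIs, which allows up to 2.76 CPM. Whether CEBPE in both class II-bearing groups was their own RNA or RNA free in the droplets was not tested. The EPX cells were 27.1-fold (24.4 to 30.1) and the ELANE cells 10.7-fold (8.42 to 13.4) above the progenitors, and the EPX cells 2.53-fold (2.04 to 3.19) above the ELANE cells. CEBPE was uneven within the EPX cells, with a median of 3 UMIs per cell, 15 at the 90th percentile and up to 31. It was seen in 67.7% of EPX cells (60.6 to 74.2), 73.5% of ELANE cells (58.9 to 85.1) and 31.8% of S100A8 cells (25.4 to 38.8), against 8.19% of CD34/GATA2 cells and 2.51% of globin cells. In thinned cells these shares were 53.6, 45.8, 17.0, 3.42 and 0.388%.

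IRF8 (ENSG00000140968, chr16:85932722-85956212 in hg19, plus strand) was high in 3 of the groups and low in the other 3. The HLA-DRA cells had 81.1 CPM (75.1 to 87.5), the C1Q cells 61.4 (56.4 to 66.7) and the S100A8 cells 54.4 (46.1 to 63.7). The C1Q and S100A8 cells did not differ beyond counting error. The CD34/GATA2 cells had 6.42 CPM (5.73 to 7.16), the ELANE cells 4.01 (0.827 to 11.7, from 3 UMIs) and the EPX cells 2.87 (1.43 to 5.13, from 11 UMIs), beside 1.99 CPM in the globin cells and 5.53 CPM (2.03 to 12.0) in the COL1A1 cells. The intervals of the ELANE and EPX cells overlapped those of both reference groups. That of the CD34/GATA2 cells lay above the globin interval (1.23 to 3.03 CPM) and within the wide COL1A1 interval, which came from 6 UMIs. The fold over the progenitors was 12.6 (11.04 to 14.5) in the HLA-DRA cells, 9.56 (8.31 to 11.01) in the C1Q cells and 8.47 (6.94 to 10.3) in the S100A8 cells, and the EPX cells had 0.446 of the progenitor level (0.221 to 0.810). IRF8 was seen in 41.4% (34.5 to 48.6) of S100A8 cells and 6.12% (1.28 to 16.9) of ELANE cells. That contrast depends on how cells with both markers are placed. The 20 cells with 10 or more UMIs of each, which count as S100A8 cells, had IRF8 at 45.8 CPM (22.0 to 84.3), and with overlapping groups the 71 ELANE cells were 2.16-fold above the progenitors in place of 0.625 of their level.

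IRF4 (ENSG00000137265, chr6:391739-411443 in hg19, plus strand) was the rarest. The C1Q cells held 53 UMIs of it, or 5.84 CPM (4.37 to 7.64), the HLA-DRA cells 23 UMIs (2.77 CPM, 1.76 to 4.16) and the S100A8 cells 4 UMIs (1.42 CPM, 0.387 to 3.64). The 2368 CD34/GATA2 cells held 5 UMIs (0.101 CPM), and the ELANE and EPX cells 0, which allows up to 4.01 and 0.782 CPM. The C1Q level was 57.9-fold that of the progenitors, with an interval of 23.3 to 186 because of the 5 UMIs. Leaving out any 1 hashtag brought the UMIs below the 50 needed to count it, with folds of 40.4 to 115. The C1Q level was 2.11-fold (1.27 to 3.60) that of the HLA-DRA cells. Even so, it was seen in 7.43% (5.49 to 9.79) of C1Q cells, with 2 UMIs at most in a cell.

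KLF4 (ENSG00000136826, chr9:110247133-110252763 in hg19, minus strand) marked the S100A8 cells. They stood at 47.2 CPM (39.6 to 56.0), the HLA-DRA cells at 9.16 (7.22 to 11.5) and the C1Q cells at 8.37 (6.60 to 10.48), where the latter pair did not differ beyond counting error. The ELANE cells had 2 UMIs (2.67 CPM, 0.324 to 9.66), the EPX cells 1 UMI (0.261 CPM) and the CD34/GATA2 cells 36 UMIs (0.727 CPM, 0.509 to 1.01). The globin cells had 1.51 CPM and the COL1A1 cells 3.69 CPM (1.004 to 9.44). The ELANE, EPX and CD34/GATA2 cells were not above these reference cells beyond counting error. The progenitors lay below them, with the globin cells at 2.08-fold (1.08 to 3.85) and the COL1A1 cells at 5.07-fold (1.31 to 14.15) their level. The S100A8 cells were 65.02-fold (44.7 to 96.8) above the progenitors and 5.16-fold (3.86 to 6.93) above the HLA-DRA cells. Against the globin and COL1A1 cells they were 31.2-fold (18.55 to 56.25) and 12.8-fold (4.89 to 47.7) higher. KLF4 was seen in 41.9% (35.0 to 49.1) of S100A8 cells and in 12.0 and 10.2% of HLA-DRA and C1Q cells.

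Other myeloid factors, from a list of 30, accompanied these patterns. Of all genes, 11.5, 8.20, 10.1, 12.5 and 4.61% were higher in the C1Q, HLA-DRA, ELANE, S100A8 and EPX cells. In the same order 13.4, 11.7, 9.91, 10.9 and 10.3% were lower. In the C1Q cells, 18 of 30 counted were 2-fold or more higher than in the progenitors and 3 were lower. MAF, a factor of macrophages, was at 74.6 CPM against 2.22 CPM, and it was also higher in the HLA-DRA cells at 17.8 CPM. In the HLA-DRA cells, 13 of 29 were higher and 5 lower. SPIB, a relative of PU.1 found in dendritic and B cells, was among the higher at 22.1 against 1.19 CPM. So was BATF3, a dendritic cell factor, at 27.7 against 3.19 CPM. Both were also higher in the C1Q cells, SPIB at 12.0 CPM and BATF3 at 16.3 CPM. The S100A8 cells had 16 of 27 higher and 0 lower, with PPARG, a nuclear receptor of lipid-handling macrophages, at 41.6 against 0.565 CPM. PPARG was also higher in the C1Q and HLA-DRA cells, at 7.38 and 4.70 CPM. The ELANE cells had 5 of 26 higher and 3 lower, with GFI1, the repressor that neutrophil precursors need, at 34.8 against 7.49 CPM. The EPX cells had 2 of 26 higher, KLF2 and GFI1, which is near the share over all genes, and 5 lower. MAF, BATF3 and GFI1 were also higher in the S100A8 cells than in the progenitors, at 15.6, 8.525 and 22.0 CPM. The progenitor factor MYB was lower in the C1Q cells (7.93 CPM) and the HLA-DRA cells (10.4 CPM) than in the progenitors (61.9 CPM), and higher in the ELANE cells (134 CPM).

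Factors of other lineages mostly went the other way, and least so in the EPX cells. GATA1, an erythroid factor that opposes PU.1, was at 87.5 CPM in the CD34/GATA2 cells, 9.14 CPM in the C1Q cells, 6.51 CPM in the HLA-DRA cells, 13.4 CPM in the ELANE cells and 6.75 CPM in the S100A8 cells. Of 7 such factors, with GATA2 left out because it defined the progenitors, 5, 6, 4 and 4 were 2-fold or more lower in these groups. Of all genes, 13.4, 11.7, 9.91 and 10.9% were lower there. In the EPX cells 3 of 7 were lower, against 10.3% of all genes, and GATA1 was not among them, at 99.0 CPM. Only LMO2 was higher, in the ELANE and S100A8 cells.

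Receptor genes that the factors are known to act on followed these groups in part only. CSF1R, the macrophage colony-stimulating factor receptor, was at 280 CPM in the C1Q cells, 136 CPM in the HLA-DRA cells and 131 CPM in the S100A8 cells, the groups with IRF8, against 16.9 CPM in the progenitors and 6.51 CPM in the EPX cells. CSF3R, the granulocyte colony-stimulating factor receptor, was at 196.5 CPM in the ELANE cells, 153 CPM in the S100A8 cells and 63.0 CPM in the EPX cells, the groups with CEBPE, against 28.6 CPM. IL5RA, the eosinophil receptor for interleukin-5, was at 37.8 CPM in the EPX cells and 1.23 CPM in the progenitors. Other receptors crossed this division. IL6R was at 89.2, 78.5, 65.5 and 131 CPM in the C1Q, HLA-DRA, ELANE and S100A8 cells, against 5.81 CPM. CSF2RA was 2-fold or more higher in all 5 myeloid groups, down to 13.4 CPM in the ELANE cells and 11.2 CPM in the EPX cells, against 5.39 CPM. Of 7 receptors counted in each group, 4 were higher in the C1Q, S100A8 and EPX cells and 3 in the HLA-DRA and ELANE cells, while 2 were lower in the HLA-DRA cells, 1 in the C1Q, ELANE and EPX cells and 0 in the S100A8 cells. For these and the lists that follow, the share of all genes over the 5 groups was 4.61 to 12.5% higher and 9.91 to 13.4% lower. Of the granule genes, all 4 azurophil genes counted were higher in the ELANE and S100A8 cells and 3 in the EPX cells. BPI, whose protein is known from azurophil granules, alone of 2 genes counted from the secondary granule list was higher in each of these 3 groups. LCN2 was lower in the EPX cells, and LTF had no UMI in the 3 groups. Of macrophage and monocyte genes, 8 of 8 counted were higher in the C1Q cells, 6 of 7 in the HLA-DRA cells, 6 of 6 in the S100A8 cells, 4 of 5 in the ELANE cells and 1 of 5 in the EPX cells. Dendritic genes were higher for 4 of 4 in the C1Q cells, 3 of 4 in the HLA-DRA cells, 2 of 3 in the S100A8 cells and 0 of 3 in the ELANE and EPX cells.

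The CD34/GATA2 cells were not uniform. They were split after the values had been seen, by their UMIs of MPO, the myeloperoxidase gene that early granulocyte and monocyte precursors switch on. MPO was at 90.7 CPM in the globin cells and 170.5 CPM in the COL1A1 cells. A few MPO UMIs in a cell, here and in the later splits, need therefore not be its own RNA. In 1766 cells with 0 to 2 MPO UMIs, 398 cells with 3 to 9 and 204 cells with 10 or more, CEBPA was at 10.4, 31.8 and 84.0 CPM. CEBPE was at 2.17, 4.37 and 83.4 CPM, with its largest step at 10 MPO UMIs. Both already differed between the lower MPO bins, with intervals of 9.33 to 11.5 and 28.3 to 35.7 CPM for CEBPA and of 1.71 to 2.71 and 3.13 to 5.92 CPM for CEBPE. CEBPD was at 20.3, 36.5 and 122 CPM, CEBPB at 54.4, 60.2 and 96.8 CPM and SPI1 at 237, 249 and 356 CPM. IRF8 was at 4.27, 6.50 and 21.1 CPM. In the same order GATA1 was at 102, 69.1 and 20.7 CPM and GATA2 at 245, 215 and 124 CPM, so that the progenitors with most MPO had least of both. CD34, which the group requires, was at 149.5 CPM in the cells with most MPO and 198 CPM in those with least.

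The EPX cells held a similar gradient. In 46 cells with 0 to 2 MPO UMIs, 45 with 3 to 9 and 104 with 10 or more, CEBPE was at 69.3 CPM (52.1 to 90.5), 151 (126 to 178) and 435 (408 to 464). SPI1 was at 217, 236.5 and 313 CPM. CEBPB went in the other direction, at 155 CPM (129 to 186), 125 (103 to 150) and 81.3 (69.8 to 94.3), and CEBPA showed no order, at 36.0, 18.96 and 32.4 CPM. Charcot-Leyden crystal protein, encoded by CLC and abundant in eosinophils and basophils, followed CEBPB, at 8648, 6199 and 2648 CPM, and GATA2 did likewise at 395.5, 370 and 200.1 CPM. By CLC itself, 53 EPX cells without a CLC UMI had CEBPE at 388 CPM and CEBPB at 74.1 CPM, and 126 cells with 10 or more had 257 and 124 CPM. The EPX cells with most MPO thus had most CEBPE and SPI1, and those with least MPO had most CLC, CEBPB and GATA2.

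**Figure D2:**
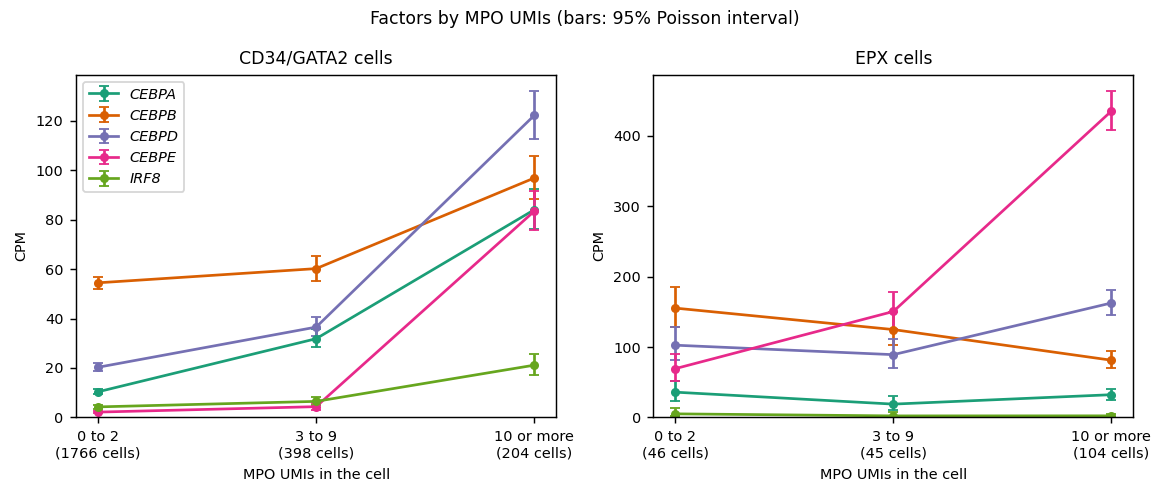
Level of 5 factors (vertical axes, CPM) by the number of MPO UMIs in the cell, for the CD34/GATA2 cells on the left and the EPX cells on the right, as points with 95% Poisson intervals. In the CD34/GATA2 cells CEBPE stays at 4.37 CPM or less below 10 MPO UMIs and is at 83.4 CPM above, and in the EPX cells CEBPE and CEBPB run in opposite directions.

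The S100A8 cells were also mixed. In 122 cells without an ELANE UMI, 56 with 1 to 9 and 20 with 10 or more, CEBPE was at 26.0, 51.8 and 133 CPM and KLF4 at 51.5, 49.2 and 4.58 CPM. The last KLF4 value came from few UMIs, with an interval of 0.116 to 25.5 CPM. CEBPD followed CEBPE, at 127, 204.5 and 252 CPM. CSF1R followed KLF4, at 150, 115 and 41.3 CPM, and CSF3R followed CEBPE, at 133, 175.5 and 238 CPM. IRF8 was at 60.4, 42.9 and 45.8 CPM with overlapping intervals. By HLA-DRA, 148 cells with 0 UMIs and 50 with 1 to 9 had IRF8 at 47.6 and 75.0 CPM, KLF4 at 42.4 and 62.1 CPM and CEBPE at 47.6 and 23.1 CPM. The intervals overlapped for IRF8 and KLF4 and were apart for CEBPE.

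Across all 7550 cells the same markers gave graded levels. By EPX UMIs (0, 1 to 2, 3 to 9, 10 to 19, 20 to 49 and 50 or more), CEBPE was at 9.398, 12.5, 58.9, 186, 282 and 425 CPM. CEBPA was at 35.0, 30.4, 30.9, 50.6, 29.0 and 8.34 CPM over the same bins, and was lowest in the cells with most EPX. IRF8 was at 32.5, 26.6, 4.32, 3.90, 2.90 and 1.67 CPM, and was at the level of the reference cells from 3 EPX UMIs on. By S100A8 UMIs, KLF4 was at 2.69, 7.28, 22.6, 40.9, 55.7 and 32.5 CPM and IRF8 at 28.5, 34.5, 44.4, 52.1, 60.02 and 82.5 CPM. The bin with most S100A8 held 27 cells, and its KLF4 interval (17.3 to 55.6 CPM) overlapped that of the bin before it. By ELANE UMIs, IRF8 went from 30.2 CPM in the cells without it to 22.9, 8.32 and 0 CPM at 10 to 19, 20 to 49 and 50 or more, the last from 9 cells. By HLA-DRA UMIs, SPI1 was at 268.5, 298, 420, 544, 652 and 811 CPM and IRF4 at 0.213, 0.516, 1.56, 3.61, 4.18 and 16.6 CPM, the last from 52 cells. CEBPD was at 55.9, 49.97, 76.2, 123, 143 and 189 CPM over the same bins. IRF8 was at 28.4, 66.7, 72.4, 71.9 and 84.1 CPM in the bins from 1 UMI on, above the cells without HLA-DRA (interval 17.1 to 18.9 CPM).

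**Figure D3:**
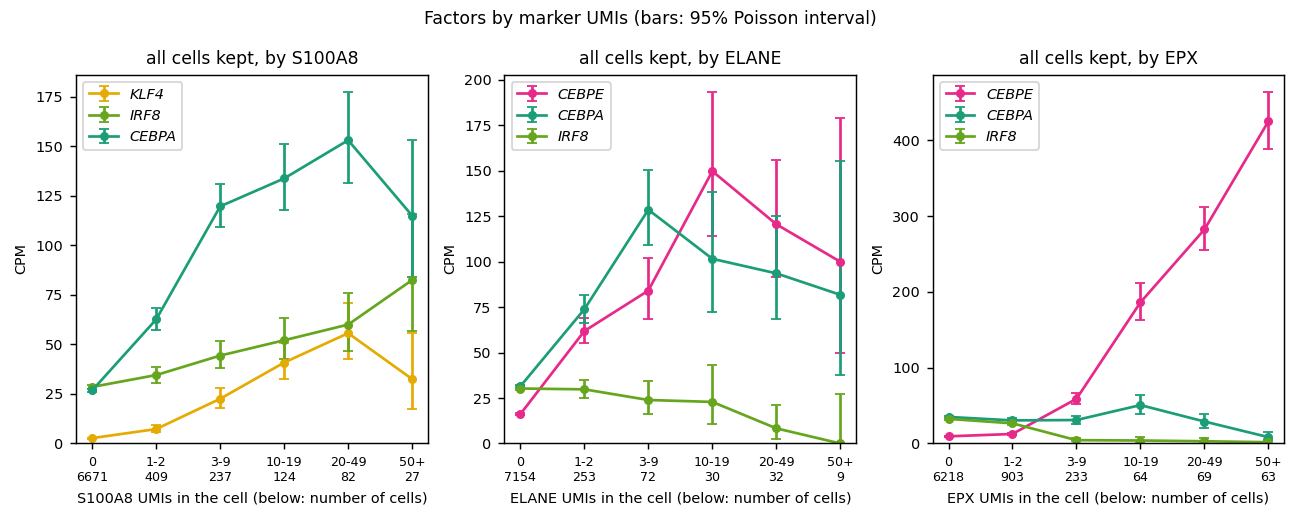
Level of 3 factors in each panel (vertical axes, CPM) by UMIs of S100A8, ELANE or EPX in the cell (horizontal axes, with the number of cells in each bin), over the 7550 cells, with 95% Poisson intervals. KLF4 and CEBPA increase with S100A8 up to 20 to 49 UMIs, IRF8 decreases with ELANE, and CEBPE increases with EPX to 425 CPM.

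Factors were also counted within single cells, after thinning to 5000 UMIs, in 7482 cells deep enough. A median of 3 of the 8 were seen in an ELANE or S100A8 cell, 2 in a C1Q, HLA-DRA or EPX cell and 1 in a CD34/GATA2, globin or COL1A1 cell. At least 4 were seen in 34.0% of S100A8 cells, 31.3% of ELANE cells, 11.9% of C1Q cells, 7.73% of EPX cells, 5.12% of HLA-DRA cells and 1.44% of CD34/GATA2 cells. Up to 6 were seen together in a cell.

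For each of the 28 pairs, the cells holding both were set against the number that the separate shares would give. Over all cells 11 pairs were found together more often (a ratio of 1.2 or more, with at least 20 cells) and 1 less often (0.8 or less). Pairs of other genes were not counted in this way, so these numbers are not read as a trait of the factors. The pair found less often was CEBPE with IRF8, seen together in 20 cells where 43.6 would be given, a ratio of 0.458 (0.280 to 0.707). Of 385 cells with CEBPE, 5.195% had IRF8, and of the others 11.7%. KLF4 went with CEBPA (64 cells, 22.7 given, ratio 2.82, 2.17 to 3.59) and with IRF8 (51 cells, 19.8 given, ratio 2.57, 1.92 to 3.38). CEBPA, CEBPD and CEBPE formed a set, with ratios of 1.75 for CEBPA and CEBPD, 1.72 for CEBPA and CEBPE and 1.94 for CEBPD and CEBPE. All 28 cells with IRF4 also had SPI1, where 20.9 would be given, a ratio of 1.34 with an interval (0.891 to 1.935) that included 1. Outside the 8 factors, CEBPA and GATA2 shared 151 cells where 296 would be given, a ratio of 0.510 (0.432 to 0.597), and GATA2 is a marker of the progenitor group.

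Within groups fewer pairs met these limits, but many pairs could not have met them. SPI1 was seen in 89.2 to 93.2% of thinned C1Q, HLA-DRA, ELANE and S100A8 cells. Shares so high kept its ratios there under the upper limit. Of 48 thinned ELANE cells, 18 had CEBPA and 0 had IRF8, IRF4 or KLF4, so their pairs could not hold enough cells. Fewer pairs within groups therefore do not show that factors were no longer found together. CEBPE and IRF8 shared 4 cells of the S100A8 group where 5.95 would be given, 0 of the CD34/GATA2 group where 1.92 would be given and 1 of the EPX group where 1.61 would be given. In the C1Q cells they shared 1 where 1.84 would be given and in the HLA-DRA cells 4 where 2.40 would be given, and in the ELANE cells no thinned cell had IRF8. These numbers are too few to read. Within the C1Q cells 2 pairs were found together more often, CEBPA with CEBPB and CEBPD with KLF4 (both 1.29), within the S100A8 cells 1 (CEBPA with IRF8, 1.22), and within the HLA-DRA, ELANE and EPX cells 0. The intervals of those 3 ratios included 1. The CD34/GATA2 cells kept 3 pairs, CEBPA with CEBPB (1.22, 0.921 to 1.57), CEBPA with CEBPD (52 cells, 22.7 given, ratio 2.29, 1.71 to 2.99) and CEBPD with CEBPE (27 cells, 9.85 given, ratio 2.74, 1.81 to 3.98). MPO moved with both of the latter. Among the 602 progenitors with 3 or more MPO UMIs the ratios were 1.57 (1.13 to 2.12) and 1.92 (1.24 to 2.83), and among the 1766 with fewer they were 1.91 (0.990 to 3.33, 12 cells) and 1.42 (0.292 to 4.13, 3 cells).

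**Figure D4:**
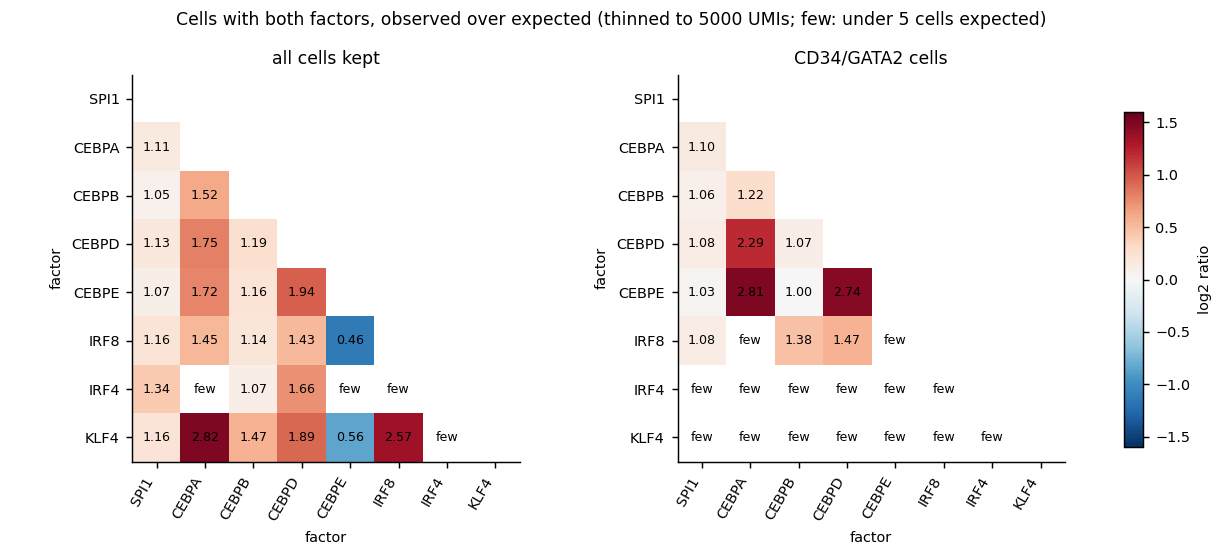
Ratio of the cells holding both factors to the number given by the separate shares, for each pair, over all cells (left) and the CD34/GATA2 cells (right), with color on a log2 scale and the ratio written in each field. CEBPE with IRF8 is the pair below 0.8 with enough cells at 0.46, and in the CD34/GATA2 cells CEBPD with CEBPE is at 2.74.

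By hashtag, 3 of the 8 factors differed 2-fold or more from the lowest to the highest over all cells, where 10.1% of all genes did. CEBPA was at 45.2, 45.7, 21.8 and 18.02 CPM in hashtags 0252, 0253, 0254 and 0255, CEBPE at 24.9, 30.55, 9.91 and 6.49 CPM, and KLF4 at 6.98, 6.06, 1.82 and 2.35 CPM. All 3 were higher in hashtags 0252 and 0253 than in 0254 and 0255. SPI1 was nearly level at 311, 343, 320 and 327 CPM, and IRF8 was at 29.05, 29.1, 26.85 and 36.6 CPM. The makeup of the pools differed as well. In the same order the hashtags held 24, 18, 4 and 3 ELANE cells, 91, 89, 16 and 2 S100A8 cells and 76, 71, 32 and 16 EPX cells. They held 183, 156, 165 and 115 C1Q cells, 185, 185, 95 and 54 globin cells and 9, 8, 13 and 32 COL1A1 cells. The part of this makeup in the values over all cells was not tested.

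Among the CD34/GATA2 cells, 2 of 6 factors counted differed 2-fold or more, against 5.82% of all genes. CEBPA was at 30.0 CPM (27.2 to 33.0), 27.2 (24.4 to 30.3), 16.1 (14.1 to 18.4) and 11.1 (9.04 to 13.5), and CEBPE at 13.1 (11.3 to 15.1), 18.8 (16.4 to 21.4), 5.04 (3.92 to 6.37) and 5.65 (4.22 to 7.41). For both factors the intervals of 0252 and 0253 lay above those of 0254 and 0255. MPO moved with them, at 408, 404, 224 and 193 CPM, and the share of these cells with 10 or more MPO UMIs was 10.6, 11.7, 6.33 and 5.13%. Among the progenitors with under 3 MPO UMIs, CEBPA was still at 12.6, 16.1, 6.48 and 5.55 CPM, and both values of 0252 and 0253 had intervals above both of the others. CEBPE there was at 2.13, 2.92, 1.96 and 1.54 CPM with overlapping intervals. Among those with 10 or more MPO UMIs, CEBPA was at 98.2, 78.6, 77.8 and 66.1 CPM. The intervals of the highest (84.2 to 114) and lowest (47.0 to 90.4) overlapped in part only, which does not show equal levels. CEBPE was at 86.5, 114, 38.4 and 69.5 CPM there, where hashtag 0254 lay below 0252 and 0253 and the interval of 0255 overlapped those of 0252 and 0254. The part of MPO in the differences was not tested beyond these values.

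**Figure D5:**
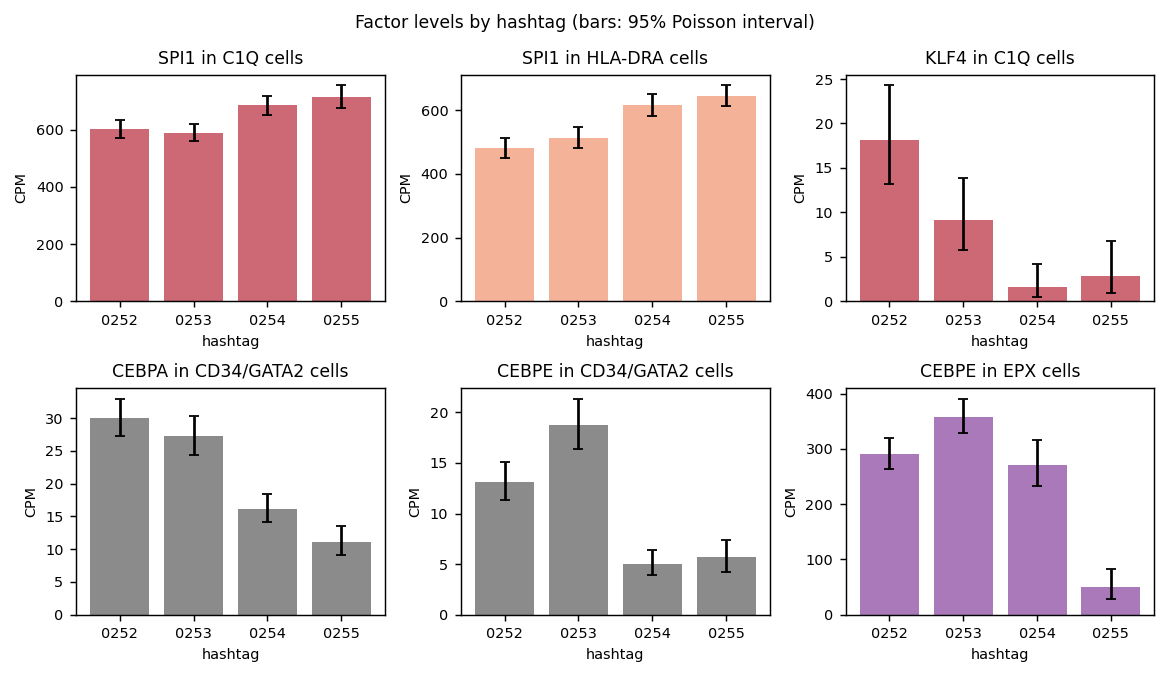
Level of SPI1, KLF4, CEBPA and CEBPE (bars from 0, CPM, with 95% Poisson intervals) by hashtag in the C1Q, HLA-DRA, CD34/GATA2 or EPX cells. SPI1 is higher in hashtags 0254 and 0255 in the C1Q and HLA-DRA cells, and KLF4 in the C1Q cells and CEBPA in the CD34/GATA2 cells are higher in 0252 and 0253.

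KLF4 was the factor that differed in the C1Q cells, 1 of 7 counted, against 13.4% of all genes. It was at 18.2 CPM (13.2 to 24.3), 9.13 (5.72 to 13.8), 1.63 (0.443 to 4.16) and 2.89 (0.939 to 6.75), from 45, 22, 4 and 5 UMIs. The spread from highest to lowest was 11.2-fold (4.07 to 42.7). S100A8 moved with it at 26.2, 23.2, 3.25 and 11.6 CPM, and in the C1Q cells without an S100A8 UMI, KLF4 was at 14.4, 8.86, 1.28 and 3.24 CPM. In the HLA-DRA cells 2 of 6 differed, against 12.8% of all genes, with KLF4 at 14.5, 8.33, 3.83 and 9.81 CPM and CEBPA at 36.8, 30.5, 18.2 and 12.0 CPM. Neutrophil markers moved with them there, summing to 319.8, 320.4, 122 and 104 CPM, with MPO at 122, 165.5, 67.5 and 53.3 CPM and S100A8 at 17.0, 9.44, 1.44 and 1.71 CPM, and their part in the differences was not tested. None of these MPO values was above the COL1A1 cells at 170.5 CPM.

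SPI1 had a small difference in the other direction. In the C1Q cells it was at 602 CPM (572 to 633), 590.2 (560.0 to 622), 686 (653.5 to 719) and 715 (676 to 756), and in the HLA-DRA cells at 481 (451 to 511.5), 513 (481 to 547), 616 (582 to 650.2) and 645 (613 to 678). Both groups had intervals for 0254 and 0255 above those for 0252 and 0253, at a spread of 1.21-fold and 1.34-fold. Macrophage markers in the C1Q cells, mostly the C1Q genes that set this group, summed to 2692, 2444, 2264 and 2251 CPM. They were lower in 0254 and 0255, where SPI1 was higher. HLA-DRA was higher in both, at 1673, 1297, 1776 and 1819 CPM in the C1Q cells and 1086, 1083, 1231 and 1435 CPM in the HLA-DRA cells. The part of these markers in the difference was not tested. In cells without an MPO UMI, SPI1 was at 594, 596, 770.5 and 787.5 CPM in the C1Q cells, and at 553, 500.4, 629 and 657 CPM in the HLA-DRA cells, where the interval of 0252 then overlapped those of 0254 and 0255.

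In the EPX cells 3 of 5 factors differed 2-fold or more, CEBPA, CEBPD and CEBPE, against 23.3% of all genes. CEBPE was at 291 CPM (264 to 320), 359 (328.5 to 391), 272 (232 to 316) and 50.4 (28.2 to 83.1), and the low value of 0255 came from 16 cells and 15 UMIs. MPO went from 3169 and 2173 to 933 and 134 CPM in these cells, and none of the 16 had 10 or more MPO UMIs. Among the EPX cells with 10 or more, CEBPE was at 405.5, 465 and 429 CPM in 0252, 0253 and 0254, with overlapping intervals. Among those with 10 or more CLC UMIs it was at 199.6, 311, 325 and 81.3 CPM, the last from 10 cells. CEBPB did not divide the EPX cells by hashtag, at 108, 114, 93.8 and 94.0 CPM. The ELANE cells had 1 of 5 (CEBPE) and the S100A8 cells 5 of 7 past 2-fold, against 33.4 and 33.6% of all genes, and hashtag 0255 held 3 and 2 of those cells. Between 0252 and 0253, which held 91 and 89 S100A8 cells, CEBPD was at 219 CPM (193 to 247) and 98.4 (82.2 to 117), CEBPB at 159 (137 to 184) and 238 (213 to 266), and KLF4 at 55.3 and 46.2 CPM with overlapping intervals.

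The genes most like each factor were ranked by Pearson correlation of log2(CPM + 1) over 24 sums of cells, the 6 groups by 4 hashtags, among 9005 genes with 500 or more UMIs. The sums share 1 library and differ in depth, and the smallest holds 2 cells, so these values are a description. SPI1 was most like VPS29 (0.915) and PTPRE (0.903), CEBPA like SEPP1, LAT2 and CFD (0.888 to 0.898), and CEBPB like SQRDL, C1orf162 and CSTA (0.928 to 0.939). CEBPD was most like RNASE2 (0.854), RRBP1 and MFSD1, and CEBPE like LRRC59 (0.911), SRP54 and SLC29A1. IRF8 had the closest match of all, IL13RA1 (0.976), followed by GNGT2 and MX1. IRF4 was most like A2M (0.963), RAMP1 and SPP1, from 85 UMIs in all, and KLF4 like IL1RN (0.855), OLR1 and RTN4. Over the 21 sums of at least 10 cells, the first gene stayed for IRF8 alone, and SPI1 was most like SLA (0.935), CEBPE like TOP1MT (0.970) and KLF4 like SIGLEC14 (0.921). Among the factors themselves the highest correlations over the 24 sums were SPI1 with IRF4 (0.78), CEBPA with CEBPB (0.75), IRF8 with IRF4 (0.74) and IRF8 with KLF4 (0.72), and the lowest was CEBPE with IRF8 (-0.69).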

How the data were processed

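The deposited values are raw UMI counts per gene and barcode, which the authors made with Cell Ranger 6.0.1 on hg19 after cell calling. Their own assignment of every barcode (1 hashtag, doublet or negative) was used as given. The 1339 barcodes called doublets and 1009 called negative were left out. Of the cells kept, 884 lay near the lowest hashtag count of their call. Scrublet in scanpy 1.11.5, with an expected rate of 6%, called 104 of 8488 cells (1.23%), which stayed in unless stated. Sums, exact Poisson and Clopper-Pearson intervals and thinning (fixed seed) used Python 3.11.15, NumPy 2.4.6, pandas 2.3.3 and SciPy 1.17.1, and figures matplotlib 3.10.9. A gene was counted if the cells compared held 50 UMIs of it. The same steps were run on simulated random counts, which lacked any variation between cultures. The required recovery of simulated differences did not include the ELANE cells.

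The 8 factors, the lists of related genes and the marker groups were chosen with earlier results of these data known. All 8 factors are named, and of other genes those of the lists, plus the 3 most like each factor, save any not reported here. Splits by MPO, CLC, ELANE, HLA-DRA and GATA1 were chosen after seeing the data. A count of 0 allows up to 3 counts, and intervals cover counting error only. Gene positions came from a GRCh37 annotation.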

Additional observations from a re-analysis of the deposited data

Results flagged for a closer look

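Barcodes that were called negative for every hashtag entered none of the comparisons, and 7 of the factors were above the limit that a count of 0 allows there (0.235 CPM). In 809 such barcodes within the same limits on UMIs, genes and mitochondrial share, with a median of 15601 UMIs, SPI1 was at 244 CPM, CEBPA at 20.4 CPM, CEBPB at 60.2 CPM, CEBPD at 36.5 CPM, CEBPE at 16.9 CPM, IRF8 at 4.78 CPM and KLF4 at 0.548 CPM. The cells kept had 325, 34.2, 79.6, 65.6, 19.1, 30.1 and 4.54 CPM in the same order. IRF8 and KLF4 thus stood lowest against the cells kept and CEBPE closest to them. IRF4 had 1 UMI in these barcodes.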

How the results depend on the processing

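Of 195 comparisons of a result under another setting, 183 stayed near the main value, though not always at the same count. The other 12 moved further. The 25 folds past 2-fold gave 325 values under other settings, of which 306 kept the call, 19 lost it and 0 changed direction. Most settings reuse the same cells and these folds were taken as past 2-fold, so a change of direction was unlikely. Among the 183 comparisons counted as near, IRF4 and KLF4 in the C1Q cells were no longer called with a mitochondrial limit of 10% or after thinning. Their folds stayed past 2-fold, at 8.20 and 24.4 for IRF4 and 13.7 and 21.8 for KLF4. They were lost because too few UMIs were left to count them. With a mitochondrial limit of 10% the factors 2-fold higher in the HLA-DRA cells were 1 in place of 4. Those lower in the C1Q and HLA-DRA cells were 0 and 0 in place of 1 and 1. That limit left 44 C1Q, 19 HLA-DRA and 98 CD34/GATA2 cells. CEBPE was still at 0.2561 and 0.2149 of the progenitor level in the C1Q and HLA-DRA cells, against 0.2227 and 0.2105. KLF4 in the HLA-DRA cells was at 20.6-fold, against 12.6-fold. These calls were lost on the minimum of UMIs and not on the fold. SPI1 and CEBPD in the HLA-DRA cells did fall under 2-fold, to 1.45-fold and 1.11-fold. Without limits on UMIs or genes 1 factor was lower in the ELANE cells (IRF8). With overlapping groups 2 were lower in the EPX cells, and after thinning to 5000 UMIs 0 were. Leaving out 1 hashtag in turn gave 0 to 1 lower in the ELANE cells and 0 to 1 in the EPX cells, both changed without hashtag 0253. Between hashtags, 1 factor passed 2-fold in the C1Q cells, 1 in the ELANE cells and 5 in the S100A8 cells, against 3 over all cells. With a minimum of 200 UMIs 6.78% of all genes were lower in the EPX cells, in place of 10.3%. Pairs found together more often numbered 11 to 13 over all settings. The highest group changed with the mitochondrial limit of 10% only, to C1Q for CEBPD (268.5 against 268.2 CPM in the ELANE cells) and to HLA-DRA for IRF4. The cause was not tested. No paired analysis was possible because there was 1 library. Depth limits IRF4, and KLF4 outside the S100A8, C1Q and HLA-DRA cells.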

Other observations

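Among the 3019 cells with none of the markers at 10 UMIs, 961 had 10 or more MPO UMIs. Those cells had SPI1 at 374 CPM, CEBPA at 84.4 CPM, CEBPB at 124.5 CPM, CEBPD at 114.5 CPM, CEBPE at 34.1 CPM (31.5 to 36.7), IRF8 at 46.8 CPM (43.9 to 49.9) and KLF4 at 8.24 CPM. The other 2058 had SPI1 at 302 CPM, CEBPA at 17.0 CPM, CEBPE at 2.53 CPM and IRF8 at 43.4 CPM (41.3 to 45.6). CEBPA and CEBPE were thus higher in the cells with MPO, and the IRF8 intervals of both sets overlapped, at levels above the CD34/GATA2, ELANE and EPX cells.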
